A study of Homo sapiens with 24 samples.

Results

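The circular human mitochondrial genome codes for 13 proteins of the respiratory chain and ATP synthase, 2 ribosomal RNAs and 22 transfer RNAs. The genes described here are all rows that the deposited count table places on chromosome MT, 37 of 58735 genes. They were measured in cultures of THP-1 and MOLM-13, immortal lines from patients with acute myeloid leukemia, in both of which KMT2A is fused to MLLT3. Cells of each line spent 72 h in 1 of 4 treatments, with 3 libraries per group and 24 in all. LAA+olaparib cells received 250 µM L-ascorbic acid (LAA), the reduced form of vitamin C, together with 1 µM olaparib, a drug that blocks the DNA-repair enzymes PARP1 and PARP2. LAA cells received 250 µM LAA alone, and olaparib cells 1 µM olaparib alone. Vehicle cells received both solvents, PBS for LAA and DMSO for olaparib. Libraries were made from polyadenylated RNA, and the library kit keeps no record of strand. Whether replicates were separate cultures is not stated, so a p-value reflects the spread among these libraries, which may be technical.

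Mitochondrial DNA is copied into RNA by the polymerase POLRMT with the factors TFAM and TFB2M, from promoters that give long transcripts of nearly a whole strand. Transfer RNAs lie between most of the other genes, and their excision by RNase P and ELAC2 releases the messenger and ribosomal RNAs. The poly(A) polymerase MTPAP adds short tails, LRPPRC with SLIRP stabilizes most messenger RNAs, and PNPT1 with SUPV3L1 degrades mitochondrial RNA. The amount of one mitochondrial RNA relative to its neighbours therefore depends on processing, tailing and decay as well as on transcription. All 13 proteins sit in the inner membrane, 7 in complex I, 1 in complex III, 3 in complex IV and 2 in ATP synthase. Capture on poly(A) tails means that RNAs with short or no tails enter a library only in part, and tail length was not measured. Counts on a transfer RNA gene may come from the excised RNA, from longer transcripts or from the other strand. These sources were not told apart, so values of transfer RNA genes below are counts on the gene, not amounts of the transfer RNA.

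Of the 37 genes, 28 are on the strand written + in the table and 9 on the other, which are MT-ND6 and 8 transfer RNA genes. Since strand was not marked, reads from one strand and from antisense RNA of the other cannot be told apart. Total counts per library were 18666259 to 25265870. The filter on low counts kept 34 of 37 genes in each line, all 13 messenger RNAs, both ribosomal RNAs and 19 transfer RNAs. MT-TF and MT-TL2 were tested in neither line, MT-TA was not tested in THP-1 and MT-TS2 not in MOLM-13. Of 10 myeloid markers, 9 reached 1 CPM (counts per 1e6, scaled between libraries) in all 24 libraries and CD68 ranged from 0.203 to 1.09 CPM. The erythroid marker HBB was at 0 in every library, and the T-cell and epithelial markers CD3E, CD3D and EPCAM reached at most 0.182 CPM. PECAM1, listed as a marker of other cells, ranged from 294 to 423 CPM in both lines. The libraries labelled with the 2 line names were much alike: 425 of 17089 genes were called higher and 340 lower in THP-1 vehicle than in MOLM-13 vehicle. A rule sought genes present in the vehicle libraries of 1 line and nearly absent from those of the other. It found 0 genes for THP-1 and 1 for MOLM-13 (DLX5), and libraries of the other treatments had no part in it. In MOLM-13, DLX5 had 5.05, 5.14 and 4.07 CPM with vehicle and 3.45, 2.16 and 3.28 CPM with olaparib. It was lower there with LAA (0.358, 0.93 and 0.486 CPM) and LAA+olaparib (0.932, 0.081 and 0.249 CPM). No THP-1 library was above 0.154 CPM. The line names below are those on the labels.

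The ends of the messenger RNA genes are shown because 6 of the 13 stop within a codon, so that their stop codon exists only once the tail is added, and the genes named most often below are of both kinds. Each line gives the last 24 bases of the gene in hg38, 5′ to 3′ on the gene's strand, and capitals mark the final partial or whole codon.
MT-ND3 (chrM:10381-10404, + strand): aaaaaggattagactgaaccgaaT
MT-ND4 (chrM:12114-12137, + strand): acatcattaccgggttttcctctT
MT-CYB (chrM:15864-15887, + strand): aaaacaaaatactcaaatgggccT
MT-ND5 (chrM:14125-14148, + strand): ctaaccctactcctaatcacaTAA
MT-ATP6 (chrM:9184-9207, + strand): ctctacctgcacgacaacacaTAA
MT-CO1 (chrM:7422-7445, + strand): gaacccgtatacataaaatctAGA
MT-CO2 (chrM:8246-8269, + strand): atagggcccgtatttaccctaTAG
MT-ND6 (chrM:14149-14172, - strand): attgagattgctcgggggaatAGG
MT-ND3, MT-ND4 and MT-CYB end on a lone T, MT-ND5 and MT-ATP6 end on TAA, MT-CO2 on TAG, and MT-CO1 and MT-ND6 on AGA and AGG, at which human mitochondrial ribosomes terminate.

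Some of the transfer RNA genes named below are printed whole, with the anticodon in capitals, from the same build. MT-TL1 and MT-TI, also named below, are not printed.
MT-TY (chrM:5826-5891, - strand): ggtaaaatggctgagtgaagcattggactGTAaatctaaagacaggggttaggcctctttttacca
MT-TW (chrM:5512-5579, + strand): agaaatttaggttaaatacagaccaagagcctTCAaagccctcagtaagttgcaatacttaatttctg
MT-TT (chrM:15888-15953, + strand): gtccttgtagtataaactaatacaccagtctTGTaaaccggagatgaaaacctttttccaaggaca
MT-TN (chrM:5657-5729, - strand): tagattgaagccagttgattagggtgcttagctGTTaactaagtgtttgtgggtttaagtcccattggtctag
MT-TC (chrM:5761-5826, - strand): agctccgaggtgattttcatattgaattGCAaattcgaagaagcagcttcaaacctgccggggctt
MT-TP (chrM:15956-16023, - strand): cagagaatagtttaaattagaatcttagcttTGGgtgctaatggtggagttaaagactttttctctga
The 5 neighbouring pairs below share bases. MT-TI with MT-TQ share 3 on opposite strands, which an unstranded count cannot split. The other pairs lie on the same strand, so a record of strand would not split them either. MT-ATP8 with MT-ATP6 share 46 bases, MT-ND4L with MT-ND4 share 7, and MT-ATP6 with MT-CO3 and MT-TC with MT-TY share 1 each.
The longest of these is shown with the start codon of MT-ATP6 and the stop codon of MT-ATP8 in capitals.
MT-ATP8 and MT-ATP6 (chrM:8527-8572, + strand): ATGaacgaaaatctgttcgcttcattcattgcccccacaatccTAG
Values of these overlapping genes, and of genes with near-identical nuclear copies, are uncertain to the extent that shared reads were assigned to one or the other.

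One library stood apart, MOLM-13 olaparib replicate 3, and its values are given here before any comparison. Mitochondrial RNA took 11.0% of its counts, against 8.63% and 8.22% in replicates 1 and 2 of its group. Counts on its transfer RNA genes were low all the same. MT-TY (tyrosine) had 6 counts in replicate 3 and 618 and 850 in replicates 1 and 2. MT-TW (tryptophan) had 1 count, against 53 and 48, and MT-TT (threonine) had 153, against 628 and 737. MT-TC (cysteine), which had the most counts of them over the 24 libraries, had 5306 counts in replicate 3 and 8307 and 8942 in the other 2. In CPM, 20 of the 22 transfer RNA genes were below the mean of the other 2 libraries. MT-TN was 1.20 times that mean, and MT-TP (proline) went the other way, with 1543 counts against 519 and 468, or 2.70 times their mean in CPM. Messenger RNAs were higher than in replicates 1 and 2 by unequal amounts, from 1.02 times for MT-ATP8 and 1.07 for MT-ND3 to 1.56 for MT-CO2 and 1.66 for MT-ND4. The small ribosomal RNA MT-RNR1 was at 0.99 times their mean. Nuclear genes of at most 100 bases were not reduced, with a summed 80.3 CPM in this library and 56.7 to 78.1 CPM in the other 23.

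**Figure D1:**
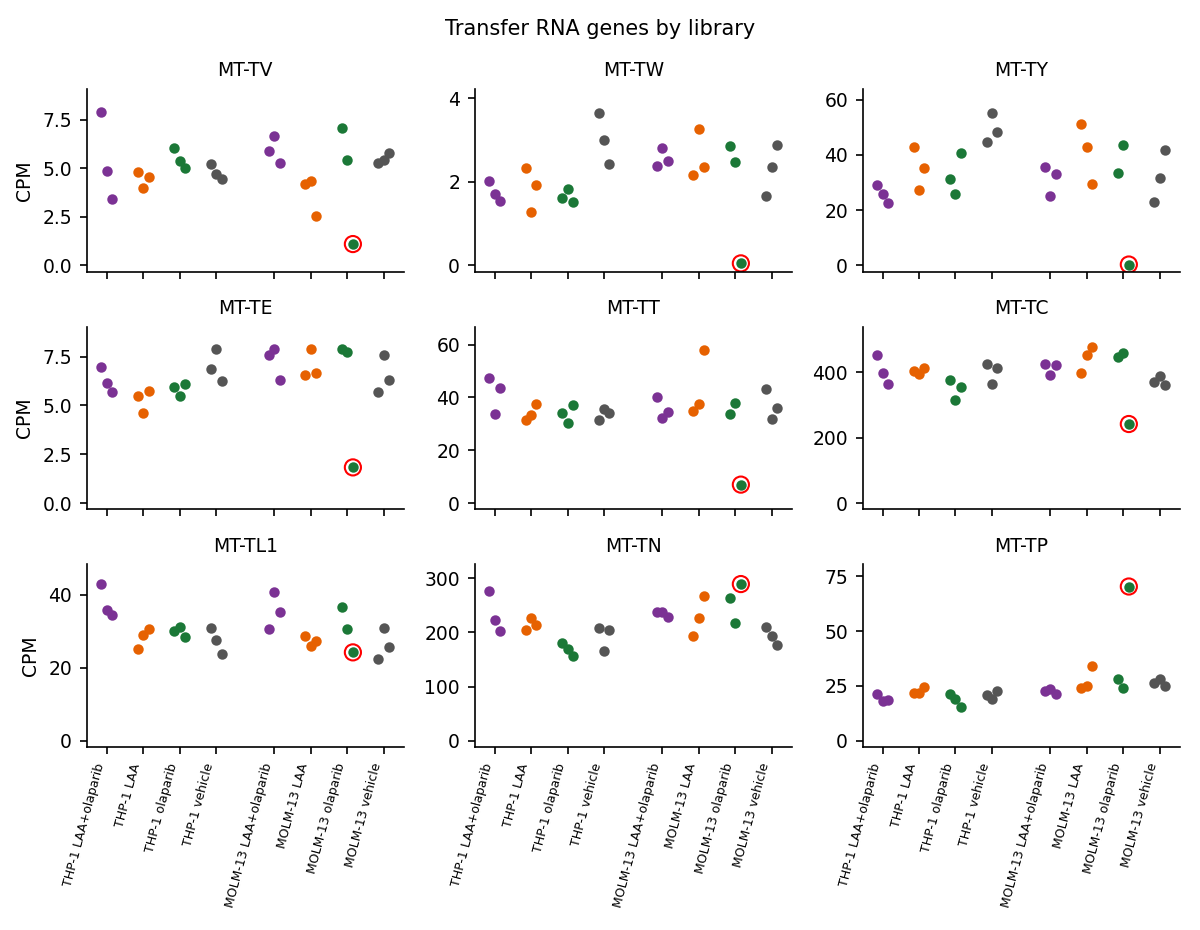
CPM of 9 transfer RNA genes in each of the 24 libraries (1 point per library, 1 panel per gene, linear axes). The circled library, MOLM-13 olaparib replicate 3, lies below all others in the panels for MT-TV, MT-TW, MT-TY, MT-TE, MT-TT and MT-TC and above all others in the panel for MT-TP.

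The same library had an excess of counts on nuclear copies of mitochondrial genes. The table holds 407 genes named as such copies, and 3 of them averaged at least 1 CPM. MTATP6P1 (chr1:633696-634376) matches MT-ATP6 at 98.5% of 681 bases, with 10 differences, and MTND2P28 (chr1:629640-630683) matches MT-ND2 at 98.4% of 1042, with 17. A 60-base window of the first pair shows how few bases tell the gene from its copy; capitals mark the 3 that differ.
MT-ATP6 (chrM:8642-8701, + strand): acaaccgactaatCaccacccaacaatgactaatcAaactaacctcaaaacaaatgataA
MTATP6P1 (chr1:633811-633870, + strand): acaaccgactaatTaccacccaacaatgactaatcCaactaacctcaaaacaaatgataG
MTATP6P1 had 1082 CPM in MOLM-13 olaparib replicate 3 and 108 to 178 CPM in the other 23 libraries. Per 100 counts of MT-ATP6, that is 16.6 counts, against 2.82 to 3.85. MTND2P28 had 42.9 counts per 100 of MT-ND2, against 22.0 to 30.4. No other library was near these ratios. MTCO1P12, the other copy that averaged at least 1 CPM, had 55.3 CPM there and 28.5 to 42.4 CPM in the other 23 libraries. Per 100 counts of MT-CO1, however, that is 0.194 counts, within the 0.151 to 0.231 of the other libraries. What sets this library apart was not tested. Counts of calls and messenger RNA medians of the MOLM-13 comparisons that use it are given with it and without it.

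**Figure D2:**
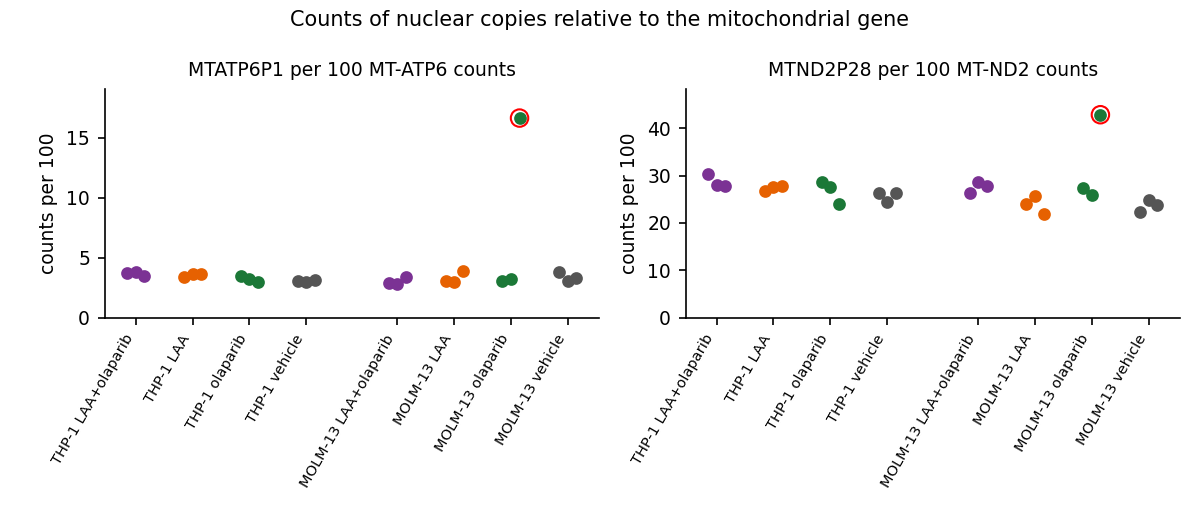
Counts of 2 nuclear copies per 100 counts of the mitochondrial gene they resemble, 1 point per library (linear axes from 0). MTATP6P1 (left) and MTND2P28 (right) are highest in the circled library, MOLM-13 olaparib replicate 3, at 16.6 and 42.9 per 100.

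Levels of different genes are compared per length, as FPKM (counts divided by gene length and library size), over the 3 vehicle libraries of each line; the order below is among the 13 messenger and 2 ribosomal RNA genes, with transfer RNA genes left out. MT-CO1, the catalytic core of cytochrome c oxidase (complex IV), was highest of these 15 in both lines, at 10986 ± 562 FPKM in THP-1 vehicle and 10373 ± 368 FPKM in MOLM-13 vehicle (SD, n = 3 each). MT-CO3, another complex IV subunit, followed at 8449.8 ± 502 FPKM in THP-1 vehicle and 8610.2 ± 967 FPKM in MOLM-13 vehicle. MT-CO1 and MT-CO3 did not overlap between libraries in either line, but MT-CO3 and MT-CO2 overlapped in MOLM-13, and MT-RNR2 and MT-CO2 overlapped in THP-1. The large ribosomal RNA MT-RNR2 had 7370.1 ± 349 FPKM in THP-1 vehicle and 6966 ± 362 FPKM in MOLM-13 vehicle, against 1407 ± 80.7 and 1493 ± 98.0 FPKM for the small one, MT-RNR1. MT-ATP6 and MT-ND4 came next in both lines, and MT-ND4L, MT-ND1 and MT-ND3 formed a group whose neighbours overlapped. MT-ND6, the one messenger RNA gene of the other strand, had 2602 ± 248 FPKM in THP-1 vehicle and 2347 ± 166 FPKM in MOLM-13 vehicle and overlapped with MT-CYB in both lines. MT-ATP8 was lowest of the 15, at 563 ± 118 FPKM in THP-1 vehicle and 417 ± 92.2 FPKM in MOLM-13 vehicle, apart from the other 14; it shares 46 bases with MT-ATP6. The transfer RNA gene with the most counts was MT-TC, with 425, 363 and 415 CPM in THP-1 vehicle and 369, 387 and 362 CPM in MOLM-13 vehicle.

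The first comparison was the share of all counts on the 37 genes. In THP-1 it was 9.47, 7.77 and 7.92% with LAA+olaparib, 6.94, 7.29 and 7.70% with LAA, 7.12, 6.68 and 6.63% with olaparib and 7.49, 6.98 and 6.81% with vehicle. In MOLM-13 it was 8.73, 9.31 and 9.19% with LAA+olaparib, 7.01, 7.61 and 8.14% with LAA, 8.63, 8.22 and 11.0% with olaparib and 6.72, 6.74 and 6.67% with vehicle. The LAA+olaparib libraries lay above the vehicle libraries in both lines, and LAA and olaparib alone did so in MOLM-13 only; the THP-1 libraries of either single agent overlapped with vehicle. An exact two-sided permutation test gave p = 0.1 for each comparison without overlap, which is the smallest p that 3 against 3 allows (Benjamini-Hochberg adjusted, 0.143 over the 10 comparisons of shares within the lines). MOLM-13 olaparib averaged 9.29 ± 1.51% with replicate 3 and 8.43% without it, against 6.71 ± 0.0327% in MOLM-13 vehicle. In such bulk RNA, fewer cells with a given RNA and less of it per cell cannot be told apart.

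Ribosomal and messenger RNA did not keep one ratio. In THP-1 the 2 ribosomal RNAs had 19.4, 20.0 and 19.7 counts per 100 counts of the 13 messenger RNAs with LAA+olaparib and 22.3, 22.3 and 22.4 with vehicle. In MOLM-13 they had 18.8, 18.0 and 18.2 with LAA+olaparib and 23.7, 22.4 and 22.2 with vehicle. The LAA+olaparib libraries lay below vehicle in both lines without overlap (exact permutation p = 0.1, the smallest possible; adjusted p = 0.167). With LAA alone the ratio overlapped with vehicle in both lines, at 23.4, 22.2 and 21.7 in THP-1 and 23, 22.6 and 21.4 in MOLM-13. With olaparib alone it was 22.6, 21.9 and 22.4 in THP-1, overlapping with vehicle, and 21.2, 21.3 and 17.8 in MOLM-13, all below vehicle, where the last value is the library that stands apart; the MOLM-13 olaparib mean was 20.1 with it and 21.2 without it.

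**Figure D3:**
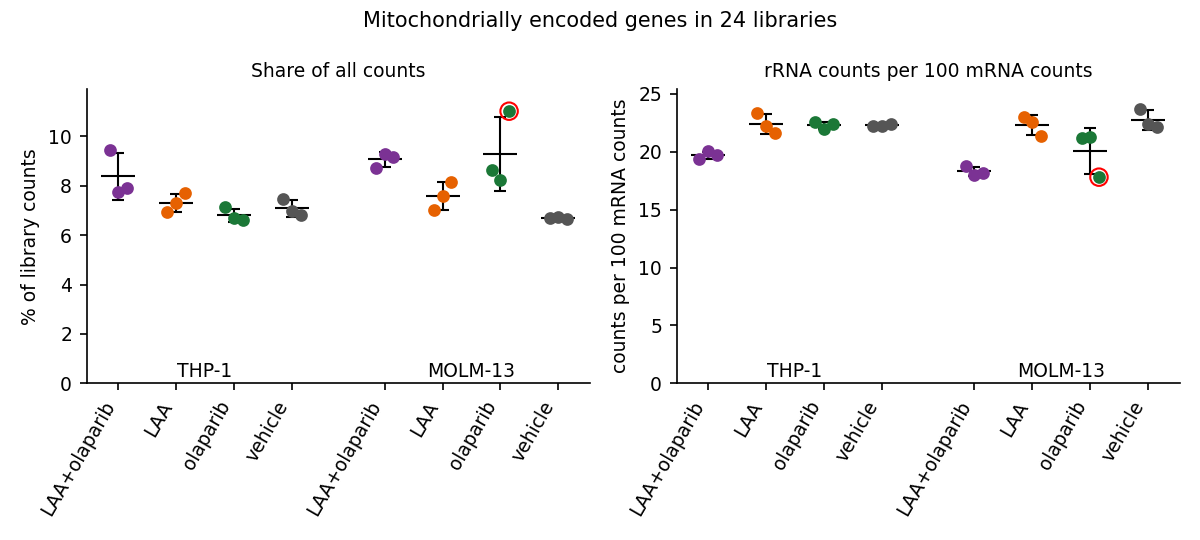
Share of all counts on the 37 genes (left, % of library counts) and ribosomal RNA counts per 100 messenger RNA counts (right) in the 8 groups; points are libraries, bars the mean and SD of 3. The share is higher and the ratio lower in the LAA+olaparib libraries than in the vehicle libraries of both lines, and the circled library is MOLM-13 olaparib replicate 3.

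With LAA and olaparib together against vehicle, MT-CO1, MT-CYB and MT-ND4 were called higher in both lines. In THP-1, 7 of 34 genes rose and 3 fell (edgeR's quasi-likelihood F test, Benjamini-Hochberg adjusted p under 0.05 over all 16331 genes tested), where 13.5% of all genes were called higher and 13.5% lower. Calls in either direction, 10 of 34, made up a share close to that of all genes in THP-1. In MOLM-13, 7 of 34 rose and 0 fell, all 7 of them messenger RNAs, where 4.85% of 16160 genes were called higher and 7.35% lower. At an unadjusted p under 0.05, 12 of the 34 were higher and 0 lower in MOLM-13 by edgeR, where 12.2% of all genes were higher and 14% lower at that threshold, and DESeq2 called 9 higher and 0 lower, where it called 6.15% of all genes higher and 8.38% lower. The median log2 fold change of the 13 messenger RNAs was 0.15 in THP-1 and 0.43 in MOLM-13, beside -0.01 and 0.00 over all genes tested. In THP-1, 4 of the 13 lay above vehicle in every library, where 20.6% of all genes did, and in MOLM-13 12 of 13, where 17.7% did. MOLM-13 olaparib replicate 3 is in neither group but adds to the spread of the MOLM-13 fit: without it, 11 genes were called higher. In THP-1 the LAA+olaparib libraries were unequal, replicate 1 being highest, and without it 4 genes were called higher and 3 lower, with a messenger RNA median of 0.06. Either agent alone gave fewer calls by edgeR, 0 with LAA and 1 with olaparib in THP-1 and 0 with each in MOLM-13. In MOLM-13 that order depended on the setting: with no filter on low counts LAA+olaparib had 14 higher and 0 lower calls and olaparib alone 15 higher and 1 lower. The shares of all genes called in that unfiltered fit are not given here, so these counts cannot be set beside them. The messenger RNA median there was 0.43 with LAA+olaparib and 0.54 with olaparib alone, or 0.38 without olaparib replicate 3.

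MT-CO1 of complex IV and MT-CYB of complex III rose in both lines. MT-CO1 had 26055, 20075 and 20619 CPM in THP-1 LAA+olaparib and 18107, 16691 and 16469 CPM in THP-1 vehicle, a log2 fold change of 0.37 ± 0.07 (SE) with an adjusted p of 0.000252. MT-CO1 had 21374, 23684 and 22836 CPM in MOLM-13 LAA+olaparib and 16793, 15860.2 and 15753 CPM in MOLM-13 vehicle, a log2 fold change of 0.49 ± 0.11 (SE) with an adjusted p of 0.00531. The groups did not overlap in either line, and replicate 1 of THP-1 LAA+olaparib stood above the other 2. MT-CO2, the subunit that takes electrons from cytochrome c, had 6911, 5761 and 6341 CPM in THP-1 LAA+olaparib and 5274, 4711 and 4893 CPM in THP-1 vehicle, a log2 fold change of 0.34 ± 0.06 (SE) with an adjusted p of 0.000134. MT-CO2 had 6869.5, 7103 and 6983 CPM in MOLM-13 LAA+olaparib and 6504, 5278 and 5452 CPM in MOLM-13 vehicle, a log2 fold change of 0.28 ± 0.15 (SE) with an adjusted p of 0.238. The MOLM-13 groups for MT-CO2 did not overlap either, although the test was not passed, and replicate 1 of vehicle was the highest of its group. MT-CO3 was not called, at 0.18 in THP-1 (adjusted p = 0.0547) and 0.25 in MOLM-13 (adjusted p = 0.195). MT-CYB, cytochrome b of complex III, had 4186, 3250.4 and 3380.2 CPM in THP-1 LAA+olaparib and 3122, 2985 and 2750.1 CPM in THP-1 vehicle, a log2 fold change of 0.28 ± 0.07 (SE) with an adjusted p of 0.00557. MT-CYB had 3585, 3702 and 3619 CPM in MOLM-13 LAA+olaparib and 2581, 2529 and 2557 CPM in MOLM-13 vehicle, a log2 fold change of 0.51 ± 0.11 (SE) with an adjusted p of 0.00594. MT-CYB did not overlap between groups in either line, but in THP-1 its adjusted p was 0.0853 without LAA+olaparib replicate 1.

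Complex I genes, which code for 7 of the membrane subunits that couple electron transfer to proton pumping, moved unequally. MT-ND4 had 11354, 8766 and 9467 CPM in THP-1 LAA+olaparib and 8304, 7619 and 7068 CPM in THP-1 vehicle, a log2 fold change of 0.36 ± 0.07 (SE) with an adjusted p of 0.000469. MT-ND4 had 10131, 10939 and 10523 CPM in MOLM-13 LAA+olaparib and 6623, 6950.3 and 6982 CPM in MOLM-13 vehicle, a log2 fold change of 0.62 ± 0.14 (SE) with an adjusted p of 0.00716. It is the one complex I gene called higher in both lines, with no overlap between groups in either. MT-ND4L, which shares a transcript with MT-ND4, had 2198, 1767 and 1384 CPM in THP-1 LAA+olaparib and 1593, 1471 and 1453 CPM in THP-1 vehicle (0.24, adjusted p = 0.0751), with overlapping groups. In MOLM-13 it rose to 2000.0, 2334 and 2301 CPM with LAA+olaparib, against 826, 1467 and 1304 CPM with vehicle, a log2 fold change of 0.88 ± 0.16 (SE) with an adjusted p of 0.000856. No other messenger RNA had a value as high in these 2 comparisons. MT-ND5 had 4061, 3253 and 2678 CPM in THP-1 LAA+olaparib and 3306, 3055 and 2988 CPM in THP-1 vehicle (0.09, adjusted p = 0.526), with overlapping groups. In MOLM-13 it rose to 3677, 4153 and 4027 CPM with LAA+olaparib, against 1743, 2894 and 2817 CPM with vehicle, a log2 fold change of 0.67 ± 0.15 (SE) with an adjusted p of 0.00671. Replicate 1 of MOLM-13 vehicle was the lowest library for both genes, and both calls held without it. MT-ND1, MT-ND2 and MT-ND6 were not called in either line: their log2 fold changes were 0.12, 0.06 and 0.15 in THP-1 and 0.36, 0.27 and 0.29 in MOLM-13. Without olaparib replicate 3 in the MOLM-13 fit they were among those called higher, at adjusted p = 0.0128, 0.0302 and 0.0254.

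MT-ND3, which codes for another small complex I subunit, fell in THP-1 and was not called in MOLM-13. It had 1149, 1237 and 1199.9 CPM in THP-1 LAA+olaparib and 1479, 1683 and 1649.9 CPM in THP-1 vehicle, and fell with a log2 fold change of -0.43 ± 0.09 (SE) with an adjusted p of 0.00049. Every LAA+olaparib library of THP-1 was below every vehicle library. In MOLM-13 it had 1402, 1112 and 1376 CPM with LAA+olaparib and 1589, 1274 and 1551 CPM with vehicle, a log2 fold change of -0.18 ± 0.12 (SE) with an adjusted p of 0.35, with overlap between the groups. MT-ND3 was the 1 messenger RNA of 13 with a negative value in MOLM-13, and the messenger RNA genes on either side of it on the map, MT-CO3 and MT-ND4L, had positive values in both lines.

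Of the ATP synthase genes, both rose in MOLM-13 and neither was called in THP-1. MT-ATP6, which codes for subunit a of the proton channel, had 4773, 3739 and 3799.8 CPM in THP-1 LAA+olaparib and 4428, 4407 and 4003 CPM in THP-1 vehicle, a log2 fold change of -0.07 ± 0.07 (SE) with an adjusted p of 0.509. MT-ATP6 had 4933, 5182 and 5142 CPM in MOLM-13 LAA+olaparib and 3537, 3821 and 3954 CPM in MOLM-13 vehicle, a log2 fold change of 0.43 ± 0.09 (SE) with an adjusted p of 0.00406. The groups overlapped in THP-1 and did not in MOLM-13. MT-ATP8, which codes for a small subunit, was at -0.20 (adjusted p = 0.235) in THP-1. It had 109.9, 132 and 129 CPM in MOLM-13 LAA+olaparib and 66.6, 89.8 and 105 CPM in MOLM-13 vehicle, a log2 fold change of 0.51 ± 0.14 (SE) with an adjusted p of 0.0208. That call was lost without MOLM-13 LAA+olaparib replicate 2 (adjusted p = 0.0952), LAA+olaparib replicate 3 (0.0797) or vehicle replicate 1 (0.126); the other 6 MOLM-13 calls held without any one library of the 2 groups. The ribosomal RNAs were not called in either line, at -0.01 for MT-RNR1 and 0.07 for MT-RNR2 in THP-1 and -0.16 and 0.16 in MOLM-13.

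**Figure D4:**
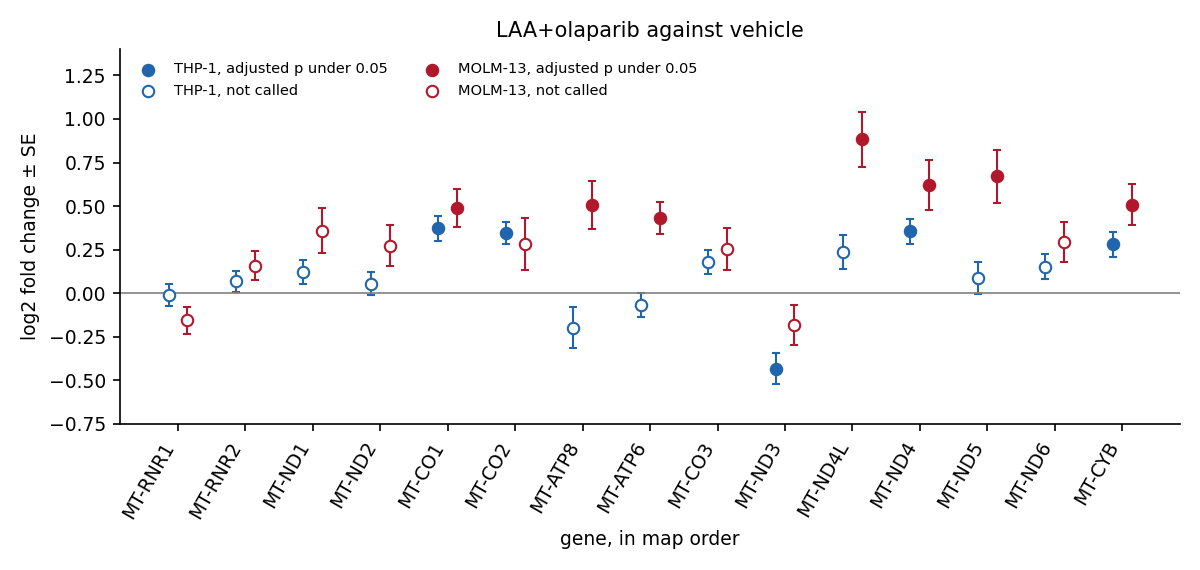
Log2 fold change ± SE of LAA+olaparib over vehicle for the 2 ribosomal and 13 messenger RNA genes in map order (filled, adjusted p under 0.05; open, not called; 3 libraries per group). MT-ND4L, MT-ND5 and MT-ND4 are highest in MOLM-13, and MT-ND3 is the lowest gene in both lines.

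With all libraries in the fit, transfer RNAs were called in THP-1 and not in MOLM-13, but the difference from MOLM-13 was not called for any of them. MT-TY fell to 29.2, 25.9 and 22.4 CPM in THP-1 LAA+olaparib, against 44.8, 55.3 and 48.3 CPM in THP-1 vehicle, a log2 fold change of -0.94 ± 0.14 (SE) with an adjusted p of 1.29e-05, with no overlap. MT-TW fell as well, with 43, 36 and 29 counts in THP-1 LAA+olaparib and 87, 59 and 47 in THP-1 vehicle, a log2 fold change of -0.79 at an adjusted p of 0.0496. The call for MT-TW was lost without any one of 5 of the 6 libraries (adjusted p 0.052 to 0.218) and rests on few counts. MT-TY was also below every vehicle library in THP-1 LAA (43.0, 27.2 and 35.2 CPM) and THP-1 olaparib (31.2, 25.9 and 40.7 CPM). For MT-TW, no THP-1 library of either single agent was above 2.34 CPM, and no THP-1 vehicle library was below 2.42 CPM. Lower values of MT-TY and MT-TW were thus not limited to LAA+olaparib, although neither gene was called with either agent alone. MT-TL1 (leucine) rose to 42.9, 35.8 and 34.5 CPM in THP-1 LAA+olaparib, against 30.8, 27.5 and 23.8 CPM in THP-1 vehicle, at 0.45 ± 0.11 (SE) with an adjusted p of 0.00194. MT-TN (asparagine) and MT-TT rose by 0.27 and 0.29 on the log2 scale, with overlapping groups. MT-TN lost its call without THP-1 LAA+olaparib replicate 1 (adjusted p = 0.258) or vehicle replicate 2 (0.199), and MT-TT lost it without any one of 5 libraries, LAA+olaparib replicate 2 excepted (adjusted p 0.0544 to 0.256). In MOLM-13, MT-TY had 35.8, 25 and 32.9 CPM with LAA+olaparib and 23, 31.5 and 41.6 CPM with vehicle, and the groups overlapped (-0.04, adjusted p = 0.976). MT-TL1 had 30.7, 40.8 and 35.2 CPM with LAA+olaparib and 22.5, 31.0 and 25.6 CPM with vehicle there (0.44, adjusted p = 0.0522); without olaparib replicate 3 in the fit it was called higher (adjusted p = 0.0233). Over all 19 transfer RNAs tested, log2 fold changes ran from -0.94 to 1.25 in THP-1, 10 of them positive, and from -0.52 to 1.15 in MOLM-13, 12 of them positive.

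LAA alone gave 0 calls among the 34 genes in either line. In THP-1, 0 of 34 were higher and 6 lower at an unadjusted p under 0.05 by edgeR, where 6.14% of all genes were higher and 6.18% lower at that threshold; edgeR called 0.937% of all genes higher and 0.551% lower after adjustment, and DESeq2 called 0 of 34, where it called 1.5% of all genes higher and 0.876% lower. In MOLM-13, 5 of 34 were higher and 0 lower at an unadjusted p under 0.05, where 7.16% of all genes were higher and 7.22% lower at that threshold; edgeR called 0.792% of all genes higher and 1.08% lower after adjustment, and DESeq2 called 0 of 34, where it called 1.73% of all genes higher and 1.83% lower. The messenger RNA median was 0.03 in THP-1 and 0.22 in MOLM-13, and all 13 messenger RNAs had a positive value in MOLM-13, from 0.13 to 0.36. Of those 13, 7 lay above vehicle in every library, where 9.67% of all genes did. MT-ND3 had 1484, 1229.7 and 1331 CPM in THP-1 LAA and 1479, 1683 and 1649.9 CPM in THP-1 vehicle (-0.25, adjusted p = 0.193), with overlap. In MOLM-13 it had 1731, 1696 and 2231 CPM with LAA and 1589, 1274 and 1551 CPM with vehicle (0.36, adjusted p = 0.135), the highest of the 13 messenger RNA values there. Without olaparib replicate 3 in the MOLM-13 fit the LAA count stayed at 0. These comparisons and those of the other treatments share the vehicle libraries of their line.

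Over the 24 libraries, most pairs of the 13 messenger and 2 ribosomal RNA genes were positively correlated. The median Pearson r was 0.605 over 105 pairs, with 57 above 0.5 and 20 below 0. Without MOLM-13 olaparib replicate 3 it was 0.665, with 58 above 0.5 and 22 below 0. A count of these genes in any comparison is therefore not a count of independent results. Still, the genes did not all move as a block within a group. In MOLM-13 LAA replicate 3, MT-CO2 and MT-CO3 were the highest of their group, with MT-CO2 at 5878, 6099 and 8233 CPM and MT-CO3 at 6227, 6839 and 9373 CPM in replicates 1 to 3. In the same library MT-ND5 and MT-ND4L were the lowest, with MT-ND5 at 2915, 3415 and 2314 CPM and MT-ND4L at 1289, 1677 and 1138 CPM. MOLM-13 vehicle replicate 1 showed the same split: MT-CO2 was 6504, 5278 and 5452 CPM and MT-CO3 7672, 6535 and 6221 CPM, both highest in replicate 1, while MT-ND5 was 1743, 2894 and 2817 CPM and MT-ND4L 826, 1467 and 1304 CPM, both lowest there. MT-ATP8 was also lowest in these libraries, at 115, 110.2 and 79.4 CPM in LAA and 66.6, 89.8 and 105 CPM in vehicle.

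Olaparib alone gave messenger RNA values of opposite sign in the 2 lines. In THP-1 all 13 messenger RNAs had negative values with olaparib, from -0.40 to -0.01, with a median of -0.11. MT-ND3 fell, 1 of 34 genes, and 0 rose, where 0.184% of all genes were called higher and 0.0857% lower; 0 of 34 were higher and 11 lower at an unadjusted p under 0.05, where 4.54% of all genes were higher and 4.75% lower at that threshold, and DESeq2 called 0, where it called 0.367% of all genes higher and 0.214% lower. MT-ND3 had 1309, 956 and 1387 CPM in THP-1 olaparib and 1479, 1683 and 1649.9 CPM in THP-1 vehicle, a log2 fold change of -0.40 ± 0.09 (SE) with an adjusted p of 0.0475. The groups did not overlap, and olaparib replicate 2 was the lowest library. The call was lost with DESeq2 (adjusted p = 0.151), with other scaling of libraries (0.0526 and 0.0594), and without olaparib replicate 1 (0.0813) or 2 (0.16) or vehicle replicate 2 (0.339) or 3 (0.242). Of the others, MT-ATP8 was at -0.34 (adjusted p = 0.328) and MT-ATP6 at -0.21 (adjusted p = 0.283), while MT-CO1 and MT-CO3 were close to 0, at -0.01 and -0.01.

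In MOLM-13 all 13 messenger RNAs had positive values with olaparib, with a median of 0.54, and 11 of the 13 lay above vehicle in every library, where 6.91% of all genes did; without replicate 3 it was 11 of 13, where 12.2% of all genes did. No gene of the 34 passed the test by edgeR, which called 0.00619% of all genes higher and 0% lower, 1 gene in all. At an unadjusted p under 0.05, 15 of 34 were higher and 0 lower, where 3.97% of all genes were higher and 4.41% lower at that threshold; without replicate 3, 17 of 35 were higher, where 2.65% of all genes were. DESeq2 called 7 higher and 0 lower, where it called 0.118% of all genes higher and 0.0866% lower; without replicate 3 it called 1 higher, where it called 0.0302% of all genes higher. Leaving out MOLM-13 olaparib replicate 3 kept the count at 0 and moved the median to 0.38; leaving out replicate 2 in its place gave 4 calls. MT-ATP6 came closest, with 5094, 4927 and 6509 CPM in MOLM-13 olaparib and 3537, 3821 and 3954 CPM in MOLM-13 vehicle, a log2 fold change of 0.55 ± 0.09 (SE) with an adjusted p of 0.0616. Without replicate 3 it was 0.41 (adjusted p = 0.108), and MT-ND4, the messenger RNA most raised in that library, was 0.40 (adjusted p = 0.534) where it had been 0.68 (adjusted p = 0.177). MT-ND5 had 4031, 3709 and 4627 CPM with olaparib and 1743, 2894 and 2817 CPM with vehicle, the largest messenger RNA value at 0.73, and 0.64 without replicate 3. MT-ND3 had the smallest, 0.10 (0.07 without replicate 3), with 1399.6, 1683 and 1656 CPM with olaparib and 1589, 1274 and 1551 CPM with vehicle, and overlapping groups. MT-TY was -0.33 with replicate 3 and 0.26 without it, and MT-TP 0.64 and -0.02, none of these called.

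**Figure D5:**
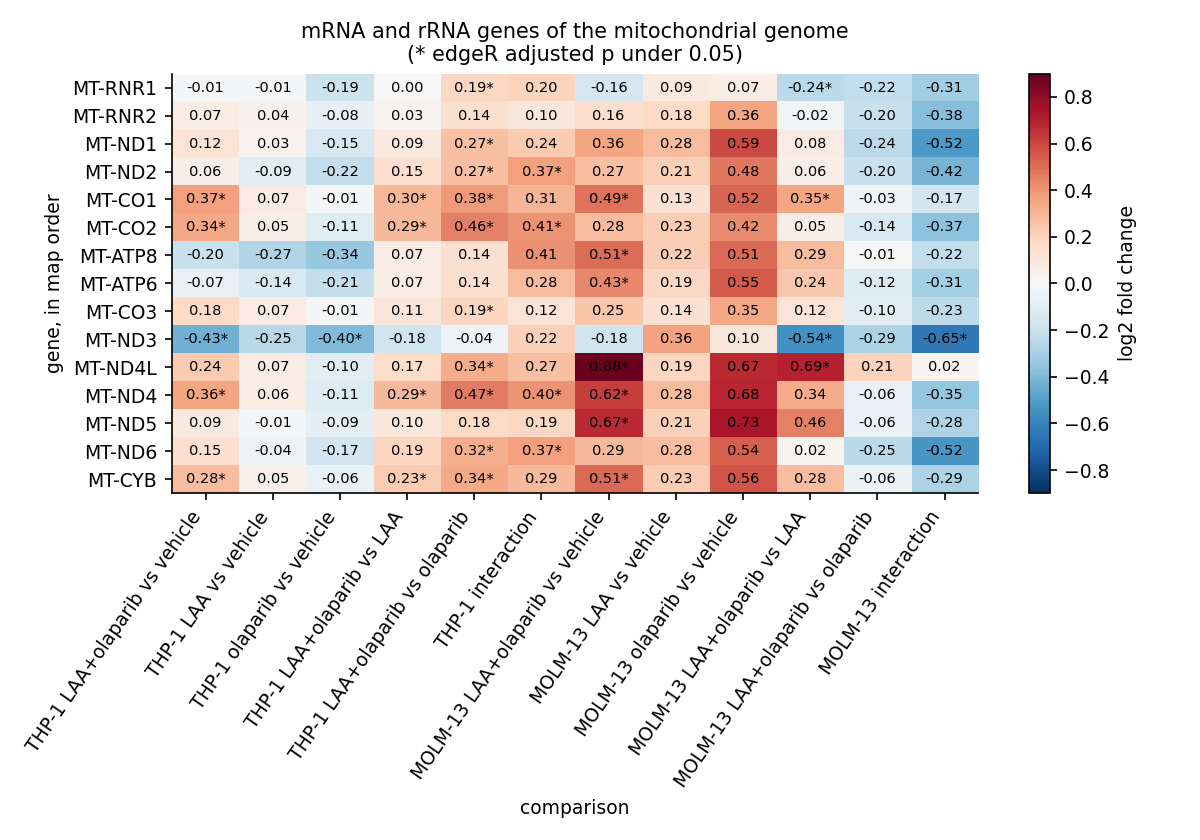
Log2 fold changes of the 2 ribosomal and 13 messenger RNA genes in map order (rows) in 6 comparisons of each line (columns); an asterisk marks an edgeR adjusted p under 0.05. Red columns for MOLM-13 olaparib and LAA+olaparib against vehicle, the mostly red THP-1 LAA+olaparib against olaparib, and the blue cells of MT-ND3 in the THP-1 columns against vehicle can be seen.

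Set against the single agents, more genes were called in THP-1 than in MOLM-13 with all libraries in the fits. Against LAA that order did not hold without MOLM-13 olaparib replicate 3, when 8 rose and 2 fell in MOLM-13. The difference between the lines was not tested for these comparisons. Against olaparib, 13 of 34 genes rose and 0 fell in THP-1, where 12.3% of all genes were called higher and 11.9% lower; 1 was lower at an unadjusted p under 0.05 (17.7% of all genes) and DESeq2 called 0 lower (12.3% of all genes). They were MT-CO1, MT-CO2, MT-CO3, MT-CYB, MT-ND1, MT-ND2, MT-ND4, MT-ND4L and MT-ND6, the ribosomal RNA MT-RNR1 and the transfer RNAs MT-TC, MT-TL1 and MT-TN. MT-ND4 had 11354, 8766 and 9467 CPM in THP-1 LAA+olaparib and 7374, 6826 and 7039 CPM in THP-1 olaparib, at 0.47 ± 0.07 (SE) with an adjusted p of 2.04e-05. MT-TN had 276, 223 and 203 CPM and 181, 169 and 157 CPM in the same groups, at 0.46 ± 0.09 (SE) with an adjusted p of 0.000358. Neither pair of groups overlapped. Without LAA+olaparib replicate 1, 7 genes were called higher, and MT-CO3 (adjusted p = 0.292), MT-ND1 (0.0576), MT-ND4L (0.183), MT-RNR1 (0.238), MT-TC (0.265) and MT-TL1 (0.156) were not. All of these but MT-ND1 were also lost without olaparib replicate 3, MT-CO3, MT-RNR1 and MT-TC without olaparib replicate 2, MT-TL1 without olaparib replicate 1, MT-CO3 and MT-RNR1 without LAA+olaparib replicate 3, and MT-TC without LAA+olaparib replicate 2 (adjusted p 0.054 to 0.199). MT-CO1, MT-CO2, MT-CYB, MT-ND2, MT-ND4, MT-ND6 and MT-TN were called without any one of the 6 libraries. With DESeq2, MT-CO3 (adjusted p = 0.0514) and MT-ND4L (0.0902) were not called. Against LAA, 6 rose (MT-CO1, MT-CO2, MT-CYB, MT-ND4, MT-TI and MT-TL1) and 1 fell (MT-TY, -0.45, adjusted p = 0.0277), where 10.1% of all genes were called higher and 10.2% lower. 1 gene was called higher without LAA+olaparib replicate 1, when MT-CO1 (0.0538), MT-CYB (0.287), MT-ND4 (0.0663) and MT-TL1 (0.0597) were lost, and 3 without LAA replicate 1, when MT-CYB (0.18) and MT-TL1 (0.057) were lost. MT-TI, with few counts, was lost without any one of 5 libraries, LAA+olaparib replicate 3 excepted (adjusted p 0.0602 to 0.247). MT-CO2 was called higher without any one of the 6 libraries, at 0.29 ± 0.06 (SE) with an adjusted p of 0.00107. The call for MT-TY was lost with DESeq2 (adjusted p = 0.125), without LAA replicate 1 (adjusted p = 0.243) or 3 (0.0711) and without LAA+olaparib replicate 2 (0.0648) or 3 (0.118).

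In MOLM-13 against olaparib, 0 of 34 genes were called by edgeR, where 2.89% of all genes were called higher and 4.59% lower; 0 of 34 were higher and 5 lower at an unadjusted p under 0.05, where 9.38% of all genes were higher and 11.7% lower at that threshold, and DESeq2 called 0 higher and 1 lower, where it called 3.92% of all genes higher and 5.67% lower; without olaparib replicate 3 DESeq2 called 0 higher and 0 lower. The messenger RNA median was -0.10, and 0.02 without olaparib replicate 3, when 0 were called higher and 0 lower. Against LAA, MT-CO1 and MT-ND4L rose and MT-ND3 and MT-RNR1 fell, 2 and 2 of 34, where 6.68% of all genes were called higher and 8.25% lower. With olaparib replicate 3 out of the fit 8 rose and 2 fell. MT-ND3 had 1402, 1112 and 1376 CPM in MOLM-13 LAA+olaparib and 1731, 1696 and 2231 CPM in MOLM-13 LAA, a log2 fold change of -0.54 ± 0.12 (SE) with an adjusted p of 0.00428, with no overlap. MT-ND4L had 2000.0, 2334 and 2301 CPM and 1289, 1677 and 1138 CPM in the same groups, at 0.69 ± 0.16 (SE) with an adjusted p of 0.00604, again without overlap. Both calls held without any one library of the groups compared. MT-CO1 (0.35, adjusted p = 0.0344) lost its call without LAA replicate 1 (0.125) or 2 (0.054) or LAA+olaparib replicate 2 (0.144) or 3 (0.0997). MT-RNR1 (-0.24, adjusted p = 0.044) lost it without LAA replicate 3 (0.186) or any LAA+olaparib library (0.106 to 0.134).

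The interaction asks whether the effect of both agents together differs from the sum of the single effects on the log2 scale. In THP-1, 4 of 34 genes were above that sum and 0 below, where 4.04% and 3.54% of all genes were; 0 were below at an unadjusted p under 0.05 (9.64% of all genes), and DESeq2 called 0 below (4.24% of all genes). They were MT-CO2 at 0.41 ± 0.09 (SE) with an adjusted p of 0.00394, MT-ND4 at 0.40 (adjusted p = 0.0127), MT-ND2 at 0.37 (adjusted p = 0.0108) and MT-ND6 at 0.37 (adjusted p = 0.0237). All 13 messenger RNAs had a positive interaction value in THP-1, with a median of 0.29. The count was 2 without LAA+olaparib replicate 1 or vehicle replicate 1, 8 without LAA+olaparib replicate 2 and 9 without LAA+olaparib replicate 3. MT-ND4 was lost without LAA+olaparib replicate 1 (adjusted p = 0.0503) or vehicle replicate 1 (0.0509), and MT-ND6 without those, LAA replicate 1, olaparib replicate 2 or vehicle replicate 2 (0.0544 to 0.105). In MOLM-13 the messenger RNA median was -0.31, and -0.17 without olaparib replicate 3. There 1 gene was below the sum and 0 above, where 0.712% of all genes were above and 1.32% below; 0 were above at an unadjusted p under 0.05 (6.36% of all genes), and DESeq2 called 0 above (1.34% of all genes). That gene was MT-ND3 at -0.65 ± 0.16 (SE) with an adjusted p of 0.0476, and the call was lost without any one of 9 of the 12 libraries (adjusted p 0.0537 to 0.161), olaparib replicate 3 among them (0.0792).

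Whether an effect differed between the lines was tested with all 24 libraries in 1 fit, coded THP-1 minus MOLM-13, in which 35 of the 37 genes passed the filter. For the olaparib effect, MT-ATP6 differed by -0.76 ± 0.12 (SE) with an adjusted p of 0.0136, and it was the 1 gene called of 17089, or 0.00585% lower and 0% higher. Its effect was -0.21 in THP-1, with 3845, 3538 and 3688 CPM in olaparib and 4428, 4407 and 4003 CPM in vehicle, and 0.55 in MOLM-13. All 13 messenger RNAs had a negative difference, with a median of -0.71 and an unadjusted p under 0.05 for each, where 2.29% of all genes were lower at that threshold. Because most of these genes are correlated across the libraries, the 13 are not independent results. DESeq2 called 9 of the 35 genes lower, and these were all of its calls (0% of all genes higher and 0.0527% lower); without MOLM-13 olaparib replicate 3 it called 1 lower. Without MOLM-13 olaparib replicate 3, MT-ATP6 differed by -0.62 (adjusted p = 0.0338) and the messenger RNA median was -0.51. The call was lost without MOLM-13 vehicle replicate 1 (adjusted p = 0.0811), THP-1 olaparib replicate 2 (0.078) or 3 (0.0533), or THP-1 vehicle replicate 1 (0.0799) or 2 (0.0763). Without MOLM-13 olaparib replicate 1, 4 mitochondrial genes were called lower, and without replicate 2, 6. The gene and its nuclear copy share nearly all their bases, and the copy's counts were up to 3.85 per 100 of MT-ATP6 in every library but replicate 3 of MOLM-13 olaparib.

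For the LAA+olaparib effect MT-ATP6 was again the 1 mitochondrial gene called, at -0.49 ± 0.12 (SE) with an adjusted p of 0.0266, where 1.53% of all genes were called higher and 0.597% lower; 0 were higher at an unadjusted p under 0.05 (9.1% of all genes) and by DESeq2 (2.57%), and the comparison shares both vehicle groups with the one before. Without any one of 7 of the 12 libraries that call was lost, with an adjusted p from 0.0632 to 0.093; without MOLM-13 olaparib replicate 3 in the fit it was 0.00426. The 7 were MOLM-13 LAA+olaparib replicates 2 and 3, MOLM-13 vehicle replicate 1, THP-1 LAA+olaparib replicates 2 and 3, and THP-1 vehicle replicates 1 and 2. MT-ND3 fell in THP-1 and was not called in MOLM-13, but the difference of its effect between the lines was -0.24 (adjusted p = 0.494). For the LAA effect 0 of 35 genes were called, where 0.129% of all genes were called higher and 0.0117% lower; 5 were lower and 0 higher at an unadjusted p under 0.05, where 3.41% of all genes were higher and 3% lower at that threshold, and DESeq2 called 0 (0.228% of all genes higher and 0.0351% lower). Between the vehicle groups 0 of 35 were called, where 2.49% of all genes were called higher and 1.99% lower; 4 were higher in THP-1 and 0 lower at an unadjusted p under 0.05, where 7.43% of all genes were higher and 6.86% lower at that threshold, and DESeq2 called 0 (3.04% of all genes higher and 2.45% lower).

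Nuclear genes that make, process and degrade mitochondrial RNA or keep up its DNA were described from a list of 44 protein-coding genes. With LAA+olaparib against vehicle, 15 of 44 rose and 5 fell in THP-1, and 2 rose and 1 fell in MOLM-13, with medians of 0.16 and 0.06. Over all genes tested, 13.5% were called higher and 13.5% lower in THP-1, and 4.85% and 7.35% in MOLM-13, with medians of -0.01 and 0.00. PNPT1, the exoribonuclease of the mitochondrial degradosome, rose in both lines. PNPT1 averaged 88.0 ± 1.55 CPM in THP-1 LAA+olaparib and 47.6 ± 0.619 CPM in THP-1 vehicle (SD, n = 3 each; log2 fold change 0.88 ± 0.08, SE; adjusted p = 8.4e-10). In MOLM-13 it averaged 64.6 ± 4.25 CPM with LAA+olaparib and 47.5 ± 2.95 CPM with vehicle (0.44, adjusted p = 0.00529), and its effect was 0.44 larger in THP-1 on the log2 scale (adjusted p = 0.0486). Without MOLM-13 olaparib replicate 3 in the fits, these were 0.44, adjusted p = 0.00334, and 0.44, adjusted p = 0.038; without THP-1 LAA+olaparib replicate 1, 0 of the 44 were called in that difference. The THP-1 counts were 15 higher and 3 lower without that library, and the MOLM-13 counts were 2 and 1 without olaparib replicate 3 in the fit. REXO2 averaged 17.9 ± 1.31 CPM in THP-1 LAA+olaparib and 9.63 ± 0.435 CPM in THP-1 vehicle (SD, n = 3 each; log2 fold change 0.88 ± 0.14, SE; adjusted p = 2.55e-05). SLIRP averaged 78.7 ± 3.32 CPM in THP-1 LAA+olaparib and 52.3 ± 6.73 CPM in THP-1 vehicle (SD, n = 3 each; log2 fold change 0.58 ± 0.10, SE; adjusted p = 5.77e-05). HSD17B10 averaged 89.3 ± 2.62 CPM in THP-1 LAA+olaparib and 65.8 ± 4.71 CPM in THP-1 vehicle (SD, n = 3 each; log2 fold change 0.43 ± 0.08, SE; adjusted p = 9.1e-05). REXO2 degrades short RNA fragments, SLIRP partners LRPPRC, and HSD17B10 is a subunit of mitochondrial RNase P. The helicase SUPV3L1, which works with PNPT1, was at 0.36 (adjusted p = 0.00398) in THP-1 and 0.12 (adjusted p = 0.402) in MOLM-13, and POLRMT at 0.31 (adjusted p = 0.00807) and 0.09 (adjusted p = 0.532). TFAM, TFB2M, TEFM, LRPPRC and MTPAP were not called in either line, with LRPPRC at -0.07 (adjusted p = 0.399) in THP-1 and -0.03 (adjusted p = 0.866) in MOLM-13. With either single agent against vehicle edgeR called 0 of the 44 in each line, where it called at most 1.08% of all genes in either direction. At an unadjusted p under 0.05, 6 were higher and 1 lower for THP-1 LAA, where 6.14% and 6.18% of all genes were. For THP-1 olaparib it was 1 and 2 (4.54% and 4.75% of all genes). For MOLM-13 LAA it was 2 and 5 (7.16% and 7.22%), and for MOLM-13 olaparib 0 and 0 (3.97% and 4.41%). Without MOLM-13 olaparib replicate 3 these MOLM-13 counts were 3 and 5 for LAA and 1 and 1 for olaparib. DESeq2 called 1 higher and 1 lower in MOLM-13 LAA (1.73% and 1.83% of all genes) and 0 in the others (at most 1.5%).

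Nuclear-encoded subunits of complexes I, III, IV and V assemble with the mitochondrial ones. With LAA+olaparib against vehicle, 6 of 71 tested rose and 15 fell in THP-1, with a median of -0.07, where 13.5% of all genes were called higher and 13.5% lower. In MOLM-13, 0 of 72 rose and 15 fell, with a median of -0.26 (0 were higher at an unadjusted p under 0.05, and DESeq2 called 0 higher), where 4.85% of all genes were called higher and 7.35% lower; the 13 mitochondrial messenger RNAs had a median of 0.43. They were 5 higher and 10 lower in THP-1 without LAA+olaparib replicate 1, and 0 and 22 in MOLM-13 without olaparib replicate 3. UQCRH, a complex III subunit, fell in both lines. UQCRH averaged 413 ± 25.1 CPM in THP-1 LAA+olaparib and 568 ± 34.6 CPM in THP-1 vehicle (SD, n = 3 each; log2 fold change -0.47 ± 0.07, SE; adjusted p = 1.7e-05). UQCRH averaged 369.5 ± 40.8 CPM in MOLM-13 LAA+olaparib and 535 ± 41.6 CPM in MOLM-13 vehicle (SD, n = 3 each; log2 fold change -0.53 ± 0.13, SE; adjusted p = 0.00772). NDUFA1 and COX8A fell in THP-1 at -0.75 and -0.50, and COX5B and COX7C in MOLM-13 at -0.61 and -0.40. In LAA+olaparib against LAA alone, 2 of 71 rose and 5 fell in THP-1, where 10.1% of all genes were called higher and 10.2% lower. In MOLM-13, 0 of 72 rose and 31 fell, or 41 fell without olaparib replicate 3 in the fit, where 6.68% of all genes were called higher and 8.25% lower; the difference between the lines was not tested. With either single agent against vehicle edgeR called 0 subunits in each line, where it called at most 1.08% of all genes in either direction. At an unadjusted p under 0.05, 2 were higher and 11 lower for THP-1 LAA, where 6.14% and 6.18% of all genes were. For THP-1 olaparib it was 0 and 5 (4.54% and 4.75% of all genes). For MOLM-13 LAA it was 3 and 0 (7.16% and 7.22%), and for MOLM-13 olaparib 0 and 19 (3.97% and 4.41%). Without MOLM-13 olaparib replicate 3 these MOLM-13 counts were 6 and 0 for LAA and 0 and 4 for olaparib. DESeq2 called 1 higher in THP-1 LAA (1.5% of all genes) and 0 in the others (at most 1.83%). Of the 5 nuclear copies tested, MTND2P28 rose with LAA+olaparib in THP-1 (0.22, adjusted p = 0.0454), while MT-ND2 was at 0.06 (adjusted p = 0.573); without LAA+olaparib replicate 1 the copy was at 0.10 (adjusted p = 0.406). Against olaparib alone it rose in THP-1 as well (0.38, adjusted p = 0.000881). In MOLM-13 LAA+olaparib against vehicle MTND2P28 was not called (0.50, adjusted p = 0.128), but without olaparib replicate 3 in the fit it rose (0.50, adjusted p = 7.14e-05), as it did against LAA (0.28, adjusted p = 0.0112, and 0.28, adjusted p = 0.398 with all libraries). MTATP6P1 fell in MOLM-13 LAA+olaparib against olaparib (-1.60, adjusted p = 0.0444), and without olaparib replicate 3 it was at -0.02 (adjusted p = 0.947).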

How the data were processed

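RNA with poly(A) tails was sequenced in 24 libraries. HISAT2, SAMtools, DESeq2 and the build hg38 are named in the submitters' processing notes; their versions, the counter, its strand setting and the annotation were not given in the sources used here. Counts as deposited are whole numbers per gene and library, not normalized. The deposited FPKM values divide those counts by gene length and 1 size per library, and were used only to compare levels between genes. All columns were mapped by their labels, and 0 columns lay outside the series. Coordinates of the 37 genes equal those of GENCODE 29, and sequences were read from the transcript sequences of that release.

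Each line was fitted over its 12 libraries, and both lines over all 24, with edgeR 4.0.16 in R 4.3.3 (filterByExpr, TMM, quasi-likelihood F test, Benjamini-Hochberg over all genes tested, threshold 0.05), 16 comparisons in all. Levels are CPM with TMM factors of the 24 libraries. Shares were compared by exact permutation tests. DESeq2 1.42.0, 3 other scalings, no filter, a block on replicate number and leaving out each library were tried; refits without MOLM-13 olaparib replicate 3 of comparisons outside its group, and with DESeq2, were added after seeing the data. The fit was tested on simulated data. Every messenger and ribosomal RNA gene, tested transfer RNA genes, and up to 4 called members of each nuclear list and comparison could be named; MT-TF, MT-TL2, CD68, DLX5 and the factors without a call were named for completeness. The members and lists were chosen with earlier results of these data known. Library totals of 18666259 to 25265870 set the precision, and counts of a few reads carry counting error.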

Additional observations from a re-analysis of the deposited data

Results flagged for a closer look

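The effect of olaparib on MT-ATP6 differed between the lines by -0.76 on the log2 scale (THP-1 minus MOLM-13; edgeR adjusted p = 0.0136): it was -0.21 in THP-1 and 0.55 in MOLM-13. It stands here because the same contrast differed between the lines by a test of the difference. The effect of LAA+olaparib on the same gene differed by -0.49 (adjusted p = 0.0266), with -0.07 in THP-1 and 0.43 in MOLM-13. Both differences use the same vehicle libraries. Each call was lost without any one of several libraries, with an edgeR adjusted p of up to 0.0811 for olaparib and 0.093 for LAA+olaparib. No explanation was tested.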

How the results depend on the processing

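Single-gene values under other settings were tallied for the messenger and ribosomal RNA genes only. Of these, 3164 kept direction and side of the threshold, 68 lost and 157 gained a call, and 91 changed sign without a call in either setting. No called value changed sign. Transfer RNA genes, several of which lost calls as given above, are not in this tally. The counts of calls below stand without the share of all genes called under the same setting. They show only how the counts moved. With no filter on low counts, genes called higher numbered 14 in MOLM-13 LAA+olaparib, 15 in olaparib and 4 in LAA against vehicle, 9 in MOLM-13 LAA+olaparib against LAA and 1 against olaparib, 9 in the THP-1 interaction and 4 between vehicles. Genes called lower numbered 2 in MOLM-13 LAA+olaparib against olaparib, 6 in the MOLM-13 interaction, 1 in MOLM-13 olaparib, 3 in THP-1 LAA, 5 in THP-1 olaparib, 2 and 1 in THP-1 LAA+olaparib against LAA and olaparib, 3, 15 and 5 for line differences in LAA, olaparib and LAA+olaparib, and 1 between vehicles. Total-count scaling gave 13 higher in MOLM-13 LAA+olaparib, 6 higher and 1 lower against LAA, 0 lower in the MOLM-13 interaction and 0 in THP-1 olaparib, where median-of-ratios scaling also gave 0. DESeq2 gave 7 higher in MOLM-13 olaparib, and 1 lower in MOLM-13 LAA+olaparib against olaparib, 2 in the MOLM-13 interaction, 0 in THP-1 LAA+olaparib against LAA, 0 in THP-1 olaparib and 9 for the olaparib difference between lines. Without MOLM-13 olaparib replicate 3, DESeq2 gave 1 higher in MOLM-13 olaparib, 2 lower in the interaction and 1 for the olaparib difference. Scaling without the mitochondrial genes kept each count within 1.5 times. The cause of these shifts was not tested. Replicate numbers did not pair libraries: same-numbered libraries correlated at a median of -0.0119 in THP-1 and 0.00486 in MOLM-13 in deviations from group means. With the replicate block, 1 gene was higher in MOLM-13 olaparib, 1 lower in MOLM-13 LAA+olaparib against LAA, 0 lower in THP-1 olaparib and 2 lower in the LAA+olaparib difference. Leaving out 1 library at a time, higher calls ranged from 4 to 10 in THP-1 LAA+olaparib, 1 to 9 against LAA, 7 to 15 against olaparib and 2 to 9 in the THP-1 interaction, 6 to 11 in MOLM-13 LAA+olaparib, 1 to 8 against LAA, 0 to 4 in MOLM-13 olaparib and 0 to 1 between vehicles. Lower calls ranged from 0 to 1 in THP-1 LAA, 0 to 2 in THP-1 olaparib, 0 to 1 in THP-1 LAA+olaparib against LAA, 0 to 1 against olaparib, 1 to 2 in MOLM-13 LAA+olaparib against LAA, 0 to 1 against olaparib, 0 to 1 in the MOLM-13 interaction, 0 to 6 in the olaparib difference and 0 to 3 in the LAA+olaparib difference. Refits without MOLM-13 olaparib replicate 3 of comparisons outside its group or with DESeq2, and the leave-outs for nuclear lists, were chosen after seeing the data. As a percent of protein-coding counts, the 13 messenger RNAs held 7.16, 6.10, 5.69 and 5.93 in THP-1 LAA+olaparib, LAA, olaparib and vehicle, and 7.86, 6.34, 7.97 (7.12 without replicate 3) and 5.59 in the same groups of MOLM-13. Few counts limit MT-TW, MT-TI and other transfer RNAs.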
